A study of Mus musculus with 32 samples.

Results

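The 28 genes described here make, sense and export cholesterol, and were measured in the mouse cell lines AML12 and HL-1. They were listed by symbol. The list has 18 enzymes that build cholesterol from acetyl-CoA, 5 genes of SREBP control and 5 genes of LXR signalling and export. All 28 were found in both count tables, which list 27843 genes for AML12 and 55414 for HL-1. After a filter on low counts, 14114 AML12 genes and 14450 HL-1 genes remained. All 28 genes of the list passed the filter in HL-1 and 26 passed it in AML12, where Abca1 and Abcg1 had 4 and 5 counts over all 16 libraries.

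The series has 32 RNA-seq libraries of total RNA in 8 groups of 4. The hepatocyte line AML12 was collected at 17 h and 25 h as control-treated cells and as cells under a treatment written DEX, which the labels do not spell out. HL-1, a line described as cardiomyocytes, was sampled at 16 h and 28 h, and every HL-1 group was kept in medium from AML12 cells. In the group called CM that medium came with DEX synchronization, and in the HL-1 control group it came without, so no HL-1 group shows cells in plain medium. Whether the libraries within a group are separate cultures is not stated in the labels, so the p-values measure the spread between these libraries, which may be technical.

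The AML12 libraries held 15.0 M to 17.5 M counts each and the HL-1 libraries 15.7 M to 19.3 M, with the CM libraries deeper than their controls (means of 18.6 M and 16.3 M at 16 h, and 18.2 M and 16.6 M at 28 h). Levels are CPM, the count of a gene per 1e6 counts, on library sizes scaled by TMM. In AML12 controls at 17 h, 2 of 5 hepatocyte markers reached 10 CPM, namely Hnf4a at 215 ± 2.51 and Apob at 174 ± 17.3 CPM (mean ± SD, n = 4), whereas Alb and Ttr were at 0.682 and 0.593 CPM. The bile duct keratin Krt19 stood at 1499.6 ± 80.1 CPM in the same libraries. Another bile duct marker, Epcam, was absent from the AML12 table, which lists only genes with counts. In HL-1 controls at 16 h, Gja1, Des and Tnnt2 were above 10 CPM and the 3 other cardiomyocyte markers, Myh6, Actc1 and Nppa, were under 1 CPM in every group mean. Over the 16 libraries of each line, Tnnt2 was higher in AML12 (55.1 CPM) than in HL-1 (34.5 CPM). Gja1 was at 18.8 CPM in AML12 and 466 CPM in HL-1, and Des at 2.43 and 524 CPM. The mesenchymal markers Vim, Col3a1, Col1a1 and Dcn were at 6284, 1455, 175 and 22.9 CPM in HL-1. Over all genes, replicate 2 of the AML12 DEX group at 17 h, replicate 4 of the DEX group at 25 h and replicate 3 of the HL-1 control group at 16 h stood apart from the others of their groups. By the chi-square per degree of freedom between pairs of libraries, the margin was small for DEX replicate 4 at 25 h. Pairs with it had 3.90 or more and other pairs of its group at most 3.69. AML12 control replicate 4 stood apart by still less, at 25 h (3.07 against 2.94) and at 17 h (2.57 against 2.55).

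Cholesterol synthesis starts from acetyl-CoA, passes through mevalonate, isoprenoid diphosphates and squalene, and ends with the conversion of lanosterol to cholesterol. When membrane cholesterol is low, SCAP escorts the SREBP-2 precursor from the endoplasmic reticulum to the Golgi, where it is cut to an active transcription factor for the enzymes. When cholesterol is high, the INSIG proteins hold SCAP and SREBP-2 back, and oxysterols activate the liver X receptors (LXR), which switch on exporters such as ABCA1 and ABCG1. The liver is a main site of this synthesis.

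SREBP-2 binds sterol regulatory elements, often beside CCAAT boxes bound by NF-Y, so the stretches before the start sites of 4 genes that rose together in AML12 under DEX are shown, chosen to include an early, a late and a control gene. They are the 250 bases before the RefSeq start on GRCm38.p6, written 5′ to 3′ on the gene's strand, with matches to TCACNCCAC (an element core) or CCAAT on either strand in capitals. Hmgcs1 lies at chr13:119690101-119690350 (plus strand), Mvk at chr5:114444019-114444268 (plus strand), Msmo1 at chr8:64733579-64733828 (minus strand) and Insig1 at chr5:28071162-28071411 (plus strand).
Hmgcs1: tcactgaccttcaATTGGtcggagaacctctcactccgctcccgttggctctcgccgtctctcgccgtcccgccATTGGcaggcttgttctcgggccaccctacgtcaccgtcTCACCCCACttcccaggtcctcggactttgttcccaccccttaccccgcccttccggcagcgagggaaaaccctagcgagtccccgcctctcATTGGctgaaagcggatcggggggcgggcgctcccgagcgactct
Mvk: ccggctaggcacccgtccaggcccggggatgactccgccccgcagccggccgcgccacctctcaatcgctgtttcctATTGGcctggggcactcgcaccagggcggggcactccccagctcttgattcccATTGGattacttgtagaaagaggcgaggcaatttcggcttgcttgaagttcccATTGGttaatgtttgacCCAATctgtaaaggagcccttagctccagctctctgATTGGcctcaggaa
Msmo1: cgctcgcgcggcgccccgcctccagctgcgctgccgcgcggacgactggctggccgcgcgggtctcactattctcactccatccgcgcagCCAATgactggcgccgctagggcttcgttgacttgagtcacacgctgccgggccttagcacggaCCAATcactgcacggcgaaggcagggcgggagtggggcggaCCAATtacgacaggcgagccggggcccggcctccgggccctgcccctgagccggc
Insig1: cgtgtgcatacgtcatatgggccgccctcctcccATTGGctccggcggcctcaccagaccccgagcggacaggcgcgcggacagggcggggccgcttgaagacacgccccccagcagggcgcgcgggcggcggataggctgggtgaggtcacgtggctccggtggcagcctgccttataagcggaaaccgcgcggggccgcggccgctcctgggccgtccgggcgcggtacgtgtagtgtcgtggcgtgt

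The RefSeq table holds windows for 22 of the 28 genes, each of 250 bases before and 50 bases after a start. The core TCACNCCAC was found in 1 of the 22, Hmgcs1, as TCACCCCAC beginning 137 bases before the start, and in 1.44% of all 27025 genes of the table. CCAAT was found in 17 of the 22, against 41.1% of all genes. A gene counts here if any of its windows has a match. Counted by window, CCAAT was in 17 of 29, against 37.4% of all 32851 windows. Insig2, Dhcr7 and Pmvk also had windows without a match. The windows of Mvk held 5 matches, those of Msmo1 3 and that of Insig1 1. No match of either motif overlapped the other in these genes, and a match describes the letters only.

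Under DEX at 17 h, most of the synthesis pathway was higher in AML12. Of the 26 genes tested, 19 rose and 2 fell by edgeR's quasi-likelihood test at a Benjamini-Hochberg adjusted p of 0.05, while of all 14114 genes 38.4% were called, 20.5% higher and 17.9% lower. Among the 18 enzymes, 16 rose, Pmvk fell and Fdps did not pass the test. Their median log2 fold change was 0.36, and that of all genes tested 0.0044. The summed level of the 18 enzymes was 1723 to 1774 CPM in the 4 control libraries and 2281 to 2335 CPM in the 4 DEX libraries, so the groups did not overlap.

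The largest rises were on both sides of squalene. Msmo1, a sterol methyl oxidase that acts after lanosterol (chr8:64718139-64733792, minus strand), measured 162, 156, 153 and 157 CPM in the control libraries and 238, 266, 227 and 253 CPM in the DEX libraries. Every DEX library lay above every control, with a log2 fold change of 0.65 ± 0.05 (SE) and an edgeR adjusted p of 1.04e-10. Mvk, mevalonate kinase (chr5:114444269-114460591, plus strand), went from 33.9, 33.3, 36.6 and 33.8 CPM to 54.2, 51.5, 56.3 and 49.8 CPM. Its groups did not overlap either, at 0.62 ± 0.05 (edgeR adjusted p = 1.12e-09). Lss, lanosterol synthase, which closes the sterol rings (chr10:76531588-76557138, plus strand), had 136, 150, 132 and 141 CPM in controls and 226, 201, 218 and 211 CPM under DEX. That is 0.62 ± 0.05 (edgeR adjusted p = 3.16e-10), again without overlap.

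Up to farnesyl diphosphate, 5 of 7 enzymes rose. Besides Mvk these were Idi1, the isopentenyl diphosphate isomerase, at 0.58 ± 0.07, Acat2, the cytosolic acetoacetyl-CoA thiolase, at 0.56 ± 0.06, Mvd, mevalonate diphosphate decarboxylase, at 0.41 ± 0.07, and Hmgcs1, HMG-CoA synthase, at 0.30 ± 0.04. Reads of Acat2 may be shared with its close paralog Acat3, which had 5.66 CPM over the AML12 libraries beside 93.4 CPM for Acat2. Pmvk, the kinase that follows Mvk in the pathway, went the other way. It had 29.2, 32.3, 30.6 and 30.8 CPM in controls and 28.9, 20.8, 27.1 and 26.0 CPM under DEX. The DEX libraries all lay below the controls, the highest of them by a small margin, and the lowest was replicate 2, the library that stood apart (-0.26 ± 0.08, edgeR adjusted p = 0.0127). Without that library the value of Pmvk was -0.17 ± 0.07 (edgeR adjusted p = 0.0413). Fdps, farnesyl diphosphate synthase, gave -0.01 ± 0.08 with a 95% interval from -0.17 to 0.15, and its exons share 1124 bases with the gene model Gm43738.

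All 3 enzymes from farnesyl diphosphate to lanosterol and all 8 from lanosterol to cholesterol rose. Sqle, squalene epoxidase, the first oxygen-dependent step, was at 292, 306, 291 and 300 CPM in controls and at 387, 387, 380 and 385 CPM under DEX (0.37 ± 0.04). The DEX libraries of Sqle were close together and far from the controls. Fdft1, squalene synthase, was 0.22 ± 0.05 higher, and shares 774 exon bases with Ctsb on the opposite strand, whose own change was 0.05 ± 0.04 (edgeR adjusted p = 0.381). After lanosterol, the rises beside Msmo1 ran from 0.20 ± 0.04 for Dhcr7, a reductase at the end of the pathway, to 0.45 ± 0.07 for Hsd17b7, a keto-sterol reductase. Between them lay Nsdhl, a sterol dehydrogenase (0.32 ± 0.06), Sc5d, a desaturase (0.32 ± 0.05), Tm7sf2, a sterol reductase (0.34 ± 0.05), Cyp51, the lanosterol demethylase (0.35 ± 0.04), and Ebp, a sterol isomerase (0.36 ± 0.04). Cyp51 overlaps Akap9 by 166 exon bases on the other strand and Tm7sf2 overlaps Vps51 by 532 on its own. Vps51 fell by 0.18 under DEX at 17 h while Tm7sf2 rose.

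Of the 5 control genes, Insig1 and Srebf2 rose and the others did not pass the test. Insig1, itself a target of SREBP-2 in many cells (chr5:28071363-28078662, plus strand), had 102, 102, 103 and 108 CPM in controls and 145, 129, 138 and 138 CPM under DEX. This was 0.41 ± 0.05 without overlap (edgeR adjusted p = 1.47e-06). Srebf2, which encodes SREBP-2 (chr15:82147181-82205379, plus strand), had 785, 819, 796 and 794 CPM in controls and 876, 926, 906 and 840 CPM under DEX. The change of Srebf2 was smaller, at 0.15 ± 0.04 (edgeR adjusted p = 0.00358), again with no overlap. Insig2, the second retention protein, gave 0.02 ± 0.04, Scap, the escort, 0.08 ± 0.04, and Stard4, a carrier of sterols between membranes, 0.09 ± 0.05. Without DEX replicate 2, Stard4 passed the test as well, at 0.14 (edgeR adjusted p = 0.00459), and 20 genes rose and 2 fell.

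On the export side, Npc1, which lets cholesterol leave lysosomes, rose by 0.22 ± 0.05, from 89.0 to 97.5 CPM in controls to 103 to 114 CPM under DEX. Npc1 overlaps Rmc1 by 511 exon bases on the other strand. Nr1h3, which encodes LXR alpha (chr2:91184061-91202834, minus strand), had 31.0, 33.8, 34.4 and 35.9 CPM in controls and 27.7, 22.9, 29.5 and 29.7 CPM under DEX. All DEX libraries lay below the controls, at -0.30 ± 0.07 (edgeR adjusted p = 0.0019), and -0.23 ± 0.06 without DEX replicate 2 (edgeR adjusted p = 0.005). Nr1h2, which encodes LXR beta, gave 0.05 ± 0.04 and did not pass the test.

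Markers moved in the same comparison. The summed level of the 5 hepatocyte markers was 381 to 418 CPM in controls and 279 to 292 CPM under DEX at 17 h, carried by Hnf4a at 215 against 148 CPM and Apob at 174 against 133 CPM in group means. Alb and Ttr went the other way at low levels, Alb from 0.682 to 1.83 CPM and Ttr from 0.593 to 1.93 CPM. The summed level of the 3 bile duct markers in the table, Krt19, Krt7 and Sox9, was 1760.3 to 1959.8 against 2360.3 to 2579.3 CPM. Epcam, the other bile duct marker chosen, was not listed for AML12 and is not in these sums. At 25 h the hepatocyte sums overlapped, at 366 to 403 CPM in controls and 385 to 409 CPM under DEX. The bile duct sums at 25 h did not overlap and were lower under DEX, at 2237.4 to 2289.8 against 2128.6 to 2230.3 CPM. The part of these shifts in the sterol gene results was not tested, and in bulk RNA fewer cells of a type and less RNA per cell cannot be told apart.

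**Figure D1:**
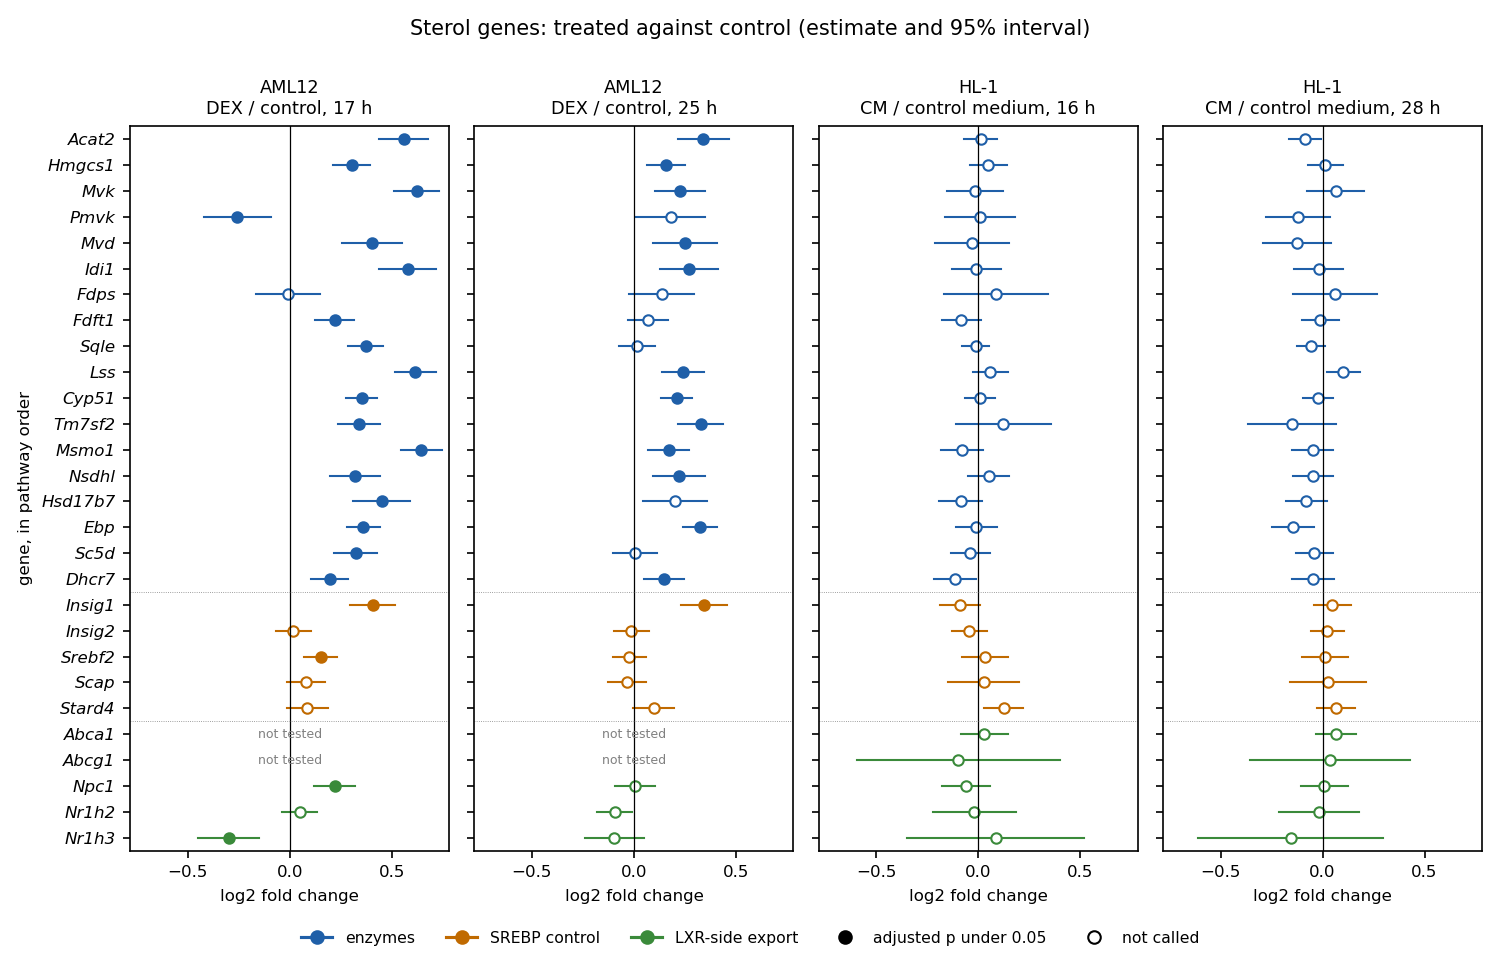
Log2 fold change (x axis) of each of the 28 genes (y axis) under DEX in AML12 at 17 h and 25 h and under CM in HL-1 at 16 h and 28 h, with bars for 95% intervals, filled points for genes that passed the test, colours for the gene groups and Abca1 and Abcg1 not tested in AML12. At 17 h the enzymes reached up to 0.65 (Msmo1), at 25 h up to 0.34 (Acat2), and no gene passed the test under CM.

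At 25 h, synthesis genes were again higher under DEX, by smaller amounts. Of 26 genes tested, 13 rose and 0 fell, against 6.79% and 4.96% of all genes (11.7% in both directions), and the median was 0.16 beside 0.0018 for all genes. For falls, edgeR called 0 genes of the list, and DESeq2 and limma-voom also called 0. At an unadjusted p under 0.05, edgeR found 1 of the 26 below control, namely Nr1h2 (-0.09 ± 0.04). In either direction 16 of the 26 had such a p, against 23.8% of all genes. The 13 were 12 enzymes and Insig1. This count depended on single libraries: it was 8 without control replicate 1, 6 without control replicate 4 and 6 without DEX replicate 4.

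The clearest of them at 25 h were Ebp, Tm7sf2, Acat2, Insig1 and Cyp51. Ebp had 102, 96.0, 93.4 and 96.7 CPM in controls and 121, 116, 119 and 130 CPM under DEX. All DEX libraries of Ebp were higher, by 0.32 ± 0.04 (edgeR adjusted p = 3.23e-06). Tm7sf2 went from 53.3, 48.5, 44.3 and 45.6 CPM to 59.0, 58.0, 58.0 and 65.4 CPM, and Acat2 from 67.7, 69.4, 62.0 and 58.5 CPM to 80.0, 78.2, 80.5 and 87.1 CPM. Neither overlapped, at 0.33 ± 0.05 and 0.34 ± 0.06. Insig1 had 86.0, 84.5, 82.3 and 79.9 CPM in controls and 95.6, 103, 102 and 121 CPM under DEX (0.34 ± 0.06, edgeR adjusted p = 0.000104). Cyp51 rose by 0.21 ± 0.04, with 164 to 177 CPM in controls and 191 to 201 CPM under DEX.

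Smaller rises at 25 h were those of Idi1 (0.27 ± 0.07), Mvd (0.25 ± 0.08), Lss (0.24 ± 0.05), Mvk (0.23 ± 0.06), Nsdhl (0.22 ± 0.06), Msmo1 (0.17 ± 0.05), Hmgcs1 (0.16 ± 0.04) and Dhcr7 (0.15 ± 0.05). Of these, every gene but Lss lost its call when at least 1 library was left out, and Dhcr7 lost it in each of the 8 cases and with DESeq2 (adjusted p = 0.0649). Pmvk, Fdps, Fdft1, Sqle, Hsd17b7 and Sc5d did not pass, with values from 0.01 ± 0.05 for Sc5d to 0.20 ± 0.08 for Hsd17b7. Among the control genes, Insig2, Srebf2 and Scap lay between -0.03 and -0.01, and Stard4 was at 0.10 ± 0.05. Npc1 (0.01 ± 0.05) and Nr1h3 (-0.10 ± 0.07) did not pass the test.

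The DEX effect itself was tested for a difference between the times. It was smaller at 25 h for 8 genes and larger for 1, against 8.27% and 7.91% of all genes (16.2% in both directions), by the interaction term in edgeR. Msmo1 showed the largest loss, at -0.48 ± 0.07 (edgeR adjusted p = 1.57e-05). Mvk (-0.40 ± 0.08), Lss (-0.38 ± 0.07), Sqle (-0.36 ± 0.06), Sc5d (-0.32 ± 0.07) and Idi1 (-0.31 ± 0.10) followed among the enzymes, then Npc1 (-0.21 ± 0.07) and Srebf2 (-0.17 ± 0.06). With total counts only, Idi1, Npc1 and Srebf2 lost this call (edgeR adjusted p = 0.0686, 0.0792 and 0.0997), as they did in 6, 6 and 7 of the 16 fits that each left out 1 library. Srebf2 also lost it with no filter on low counts (edgeR adjusted p = 0.102). Pmvk turned from a fall at 17 h to 0.18 ± 0.08 at 25 h, which did not pass the test there, and its difference was 0.44 ± 0.11 (edgeR adjusted p = 0.00902). For Ebp, Tm7sf2, Dhcr7 and Insig1 the difference lay between -0.06 and -0.01 and did not pass, with 95% intervals no lower than -0.22 and no higher than 0.14. The other 13 genes did not pass, with values from -0.25 ± 0.10 for Hsd17b7 to 0.20 ± 0.10 for Nr1h3. Without DEX replicate 2 of 17 h, or without DEX replicate 4 of 25 h, 12 genes were smaller at 25 h and 1 larger.

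Within AML12, synthesis genes were lower at the later time in both treatments. In controls 16 of 26 genes were lower at 25 h than at 17 h and 2 higher, against 21.4% and 22.1% of all genes (43.5% in both directions). Under DEX 17 were lower and 2 higher, against 28.2% and 27.8% (56% in both directions). These comparisons use the same libraries as those of DEX against control, so their values are set side by side and are not separate evidence. The summed level of the 18 enzymes went from 1748 ± 20.8 to 1454.5 ± 45.5 CPM in controls and from 2309.5 ± 23.7 to 1639.6 ± 65.2 CPM under DEX (mean ± SD, n = 4). Markers moved with time as well. From 17 h to 25 h the summed bile duct markers went from 1760.3 to 1959.8 CPM to 2237.4 to 2289.8 CPM in controls and from 2360.3 to 2579.3 CPM to 2128.6 to 2230.3 CPM under DEX. The summed hepatocyte markers overlapped between the times in controls and went from 279 to 292 CPM to 385 to 409 CPM under DEX. Their part in the time differences was not tested.

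Hsd17b7, Tm7sf2, Mvk and Lss were among the enzymes that were lower. Hsd17b7 had 39.0, 35.0, 34.2 and 34.8 CPM in controls at 17 h and 20.1, 22.8, 22.5 and 21.3 CPM at 25 h (-0.72 ± 0.07). Under DEX it went from 51.5, 45.9, 48.0 and 49.8 to 22.0, 23.6, 24.8 and 29.4 CPM (-0.97 ± 0.07, edgeR adjusted p = 3.15e-11). In both treatments the later libraries of Hsd17b7 all lay below the earlier ones. Tm7sf2 was lower by a like amount in controls (-0.73 ± 0.05) and under DEX (-0.74 ± 0.05). Mvk changed by -0.52 ± 0.06 in controls and by -0.91 ± 0.05 under DEX, and Lss by -0.40 ± 0.05 and -0.78 ± 0.05. Dhcr7 (-0.48 ± 0.05 and -0.53 ± 0.05) and Ebp (-0.39 ± 0.04 and -0.42 ± 0.04) were lower in both. Hmgcs1 did not pass the test in either treatment (0.06 ± 0.04 and -0.09 ± 0.04). Under DEX it passed when DEX replicate 2 of 17 h (-0.11, edgeR adjusted p = 0.0348), DEX replicate 3 of 17 h (-0.11, 0.0412) or DEX replicate 4 of 25 h (-0.13, 0.0146) was left out.

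Among the other enzymes, Acat2 (-0.52 ± 0.06 in controls and -0.74 ± 0.06 under DEX), Mvd (-0.51 ± 0.07 and -0.67 ± 0.07), Nsdhl (-0.37 ± 0.06 and -0.47 ± 0.06), Sqle (-0.23 ± 0.04 and -0.59 ± 0.04) and Msmo1 (-0.16 ± 0.05 and -0.63 ± 0.05) passed in both. So did Fdft1 (-0.12 ± 0.05 and -0.27 ± 0.05), whose neighbour Ctsb on the other strand was also lower, at -0.30 ± 0.04 and -0.51 ± 0.04. The call of Fdft1 in controls was lost in 6 of the 8 fits that each left out 1 library, with the lowest size, -0.09, without control replicate 4 of 25 h (edgeR adjusted p = 0.165). Idi1, Cyp51 and Sc5d passed under DEX (-0.41 ± 0.07, -0.22 ± 0.04 and -0.42 ± 0.05) and gave -0.10 ± 0.07, -0.07 ± 0.04 and -0.11 ± 0.05 in controls. With total counts only, Cyp51 and Sc5d also passed in controls. Pmvk and Fdps passed in controls (-0.39 ± 0.08 and -0.23 ± 0.08) and gave 0.04 ± 0.08 and -0.09 ± 0.08 under DEX. Fdps lost its call in controls without control replicate 3 or 4 of 17 h or replicate 2 of 25 h (edgeR adjusted p = 0.0507, 0.0521 and 0.0512).

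The control genes split. Insig1 was lower at 25 h, at -0.32 ± 0.06 in controls and -0.38 ± 0.05 under DEX, as was Srebf2, at -0.12 ± 0.04 and -0.30 ± 0.04. The Srebf2 call in controls was lost without control replicate 2 of 17 h or replicate 3 or 4 of 25 h (edgeR adjusted p = 0.0534, 0.0661 and 0.0603). Insig2 was higher, with 86.8 to 90.1 CPM in controls at 17 h and 95.6 to 101 CPM at 25 h (0.14 ± 0.04, edgeR adjusted p = 0.01), and 0.11 ± 0.04 under DEX. Both Insig2 calls were lost when only total counts were used for scaling (edgeR adjusted p = 0.0984 in controls and 0.0518 under DEX) and with no filter on low counts (0.0601 and 0.118). The call under DEX was also lost when only the compared libraries were fitted (edgeR adjusted p = 0.0927) and in 4 of the 8 fits that each left out 1 library, with 0.06 and an edgeR adjusted p of 0.168 without DEX replicate 2 of 17 h. Nr1h3 was 0.36 ± 0.07 higher under DEX at 25 h than at 17 h (edgeR adjusted p = 0.000145), and 0.16 ± 0.07 in controls, which did not pass. In controls it passed with counts thinned to the lowest total (0.18, edgeR adjusted p = 0.0422) and with the compared libraries only (0.16, 0.0211). It also passed there without control replicate 3 of 25 h (0.20, edgeR adjusted p = 0.0465). Npc1 was higher at 25 h in controls (0.21 ± 0.05) and did not pass under DEX (edgeR adjusted p = 0.995). Scap, Stard4 and Nr1h2 did not pass in either treatment, with values from -0.08 to 0.06. Without DEX replicate 2 of 17 h, Stard4 was lower at 25 h under DEX (-0.11, edgeR adjusted p = 0.0198).

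In HL-1 cells, conditioned medium gave no called change in any of the 28 genes. By edgeR, 0 rose and 0 fell at 16 h, against 0.83% and 1.2% of all genes (2.03% in both directions). At 28 h 0 rose and 0 fell, against 0.706% and 1.22% (1.92% in both directions). At an unadjusted p under 0.05 there were 2 of 28 genes at 16 h, against 11% of all genes, and 3 of 28 at 28 h, against 12.7%. DESeq2 and limma-voom called 0 at both times as well. The median of the 28 was -0.01 at 16 h and -0.02 at 28 h. Summed enzyme levels were 1419 ± 22.7 CPM in controls and 1410.3 ± 24.6 CPM under CM at 16 h, and 2000.5 ± 13.9 and 1960.3 ± 54.2 CPM at 28 h.

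The 95% intervals give the sizes of effect that these libraries leave possible. For the 18 enzymes, all 95% intervals of the CM effect lay within -0.22 to 0.36 at 16 h and within -0.37 to 0.27 at 28 h, with Dhcr7 and Tm7sf2 at the ends at 16 h, and Tm7sf2 and Fdps at 28 h. The estimates of all 28 genes ran from -0.12 to 0.12 at 16 h and from -0.16 to 0.10 at 28 h. At 16 h the genes with an unadjusted p under 0.05 were Stard4 (0.12 ± 0.05) and Dhcr7 (-0.12 ± 0.05). Dhcr7 had 40.7, 46.2, 41.9 and 42.7 CPM in controls and 39.3, 40.3, 38.9 and 39.8 CPM under CM, without overlap, but its edgeR adjusted p was 0.375. At 28 h they were Ebp (-0.14 ± 0.05), Lss (0.10 ± 0.04) and Acat2 (-0.09 ± 0.04), with edgeR adjusted p from 0.178 to 0.326. Abcg1 had 20 to 32 counts and Nr1h3 19 to 41 counts per library at 16 h, and their intervals were wider, from -0.60 to 0.40 and from -0.35 to 0.52. The summed hepatocyte markers of HL-1, almost all Apob, were 5.01 to 8.38 CPM in control medium and 9.06 to 10.4 CPM under CM at 28 h. A difference of the CM effect between the times was called for 0 genes of the list in edgeR, DESeq2 and limma-voom ( 1 of 28 at an unadjusted p under 0.05, Insig1, against 6.73% of all genes, and 0.277% of all genes called).

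Between 16 h and 28 h, in contrast, most sterol genes of HL-1 were higher. In control medium 21 of 28 were higher and 3 lower at 28 h, against 31.5% and 31.3% of all genes (62.8% in both directions). Under CM 22 were higher and 3 lower, against 32.6% and 32.9% (65.4% in both directions). The median of the 28 was 0.48 and 0.39, and that of all genes 0.0010 and -0.0045. With HL-1 control replicate 1 or replicate 3 of 16 h left out, the counts in control medium stayed at 21 and 3.

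Abca1, the exporter that loads cholesterol onto lipid-poor apolipoproteins (chr4:53030787-53159895, minus strand), had the largest difference. Its control libraries had 42.3, 42.0, 45.2 and 43.8 CPM at 16 h and 131, 122, 146 and 128 CPM at 28 h. Under CM the values were 47.3, 42.2, 45.3 and 41.9 CPM and then 140, 133, 138 and 141 CPM. The times were far apart in both media, at 1.61 ± 0.05 and 1.64 ± 0.05 (edgeR adjusted p = 1.21e-18 and 4.66e-19), or 3.04-fold in control medium. Its 250 bases before the RefSeq start (chr4:53159896-53160145 (minus strand)) are shown because LXR acts on this gene in many cells. They hold no TCACNCCAC or CCAAT, and elements bound by LXR were not searched for.
Abca1: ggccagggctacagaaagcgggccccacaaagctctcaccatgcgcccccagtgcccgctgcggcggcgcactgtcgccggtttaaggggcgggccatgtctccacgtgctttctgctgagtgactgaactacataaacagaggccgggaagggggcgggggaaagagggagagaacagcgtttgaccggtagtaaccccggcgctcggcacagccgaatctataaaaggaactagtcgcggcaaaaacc

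Abcg1, the exporter that passes cholesterol to mature lipoproteins, was low but also higher at 28 h. It had 1.37, 1.69, 2.00 and 1.37 CPM and then 4.19, 3.51, 3.44 and 1.95 CPM in control medium, where the times overlapped (1.03 ± 0.22, edgeR adjusted p = 0.000197), and was 1.17 ± 0.21 higher under CM. Nr1h2 was 0.43 ± 0.10 higher in both media. In control medium at 16 h its replicate 1 had 46.3 CPM, below the 63.7 to 68.3 CPM of the others, and at 28 h the 4 libraries had 78.0 to 84.1 CPM. Nr1h3 stayed between 1.18 and 2.12 CPM in all 16 HL-1 libraries and did not pass the test. Npc1 passed under CM (0.14 ± 0.06, edgeR adjusted p = 0.0346, lost in 5 of the 8 fits that each left out 1 library) and not in control medium (0.07 ± 0.06). The difference of these Npc1 effects, 0.07 ± 0.08, did not pass (edgeR adjusted p = 0.942).

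The retention protein genes were also higher in HL-1 at 28 h. Insig2 had 78.1, 76.3, 78.3 and 78.5 CPM in control medium at 16 h and 150, 162, 162 and 153 CPM at 28 h. The 16 h libraries were almost equal and far below the later ones (1.01 ± 0.04, edgeR adjusted p = 9.01e-17), and under CM the difference was 1.08 ± 0.04. Insig1 went from 71.3 to 81.7 CPM to 123 to 126 CPM in control medium (0.71 ± 0.05). Srebf2 (0.34 ± 0.05) and Stard4 (0.40 ± 0.05) were higher and Scap was lower (-0.52 ± 0.09), in control medium, with 44.6 to 59.6 CPM at 16 h and 33.2 to 38.8 CPM at 28 h.

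Of the 18 enzymes, 14 were higher and 2 lower at 28 h in each medium. Fdps had 5.46, 5.69, 7.03 and 4.80 CPM and then 14.2, 11.1, 12.2 and 11.8 CPM in control medium (1.11 ± 0.11). Hmgcs1 had 146, 136, 130 and 136 CPM and then 261, 253, 263 and 276 CPM (0.95 ± 0.04). Both were without overlap, and both were also higher under CM (1.08 ± 0.11 and 0.91 ± 0.04). Lss (0.80 ± 0.04), Fdft1 (0.73 ± 0.05), Msmo1 (0.72 ± 0.05), Mvd (0.67 ± 0.08) and Pmvk (0.61 ± 0.08) were next in control medium. Ctsb, the neighbour that overlaps Fdft1, was 0.19 ± 0.03 higher, and Akap9, which overlaps Cyp51, 0.35 ± 0.04 higher. Tm7sf2 (0.57 ± 0.11), Sqle (0.55 ± 0.03), Nsdhl (0.52 ± 0.05), Cyp51 (0.39 ± 0.04), Hsd17b7 (0.33 ± 0.05), Sc5d (0.32 ± 0.05) and Acat2 (0.20 ± 0.04) made up the rest. Under CM, Tm7sf2 was 0.30 ± 0.11 higher and Acat2 0.10 ± 0.04. Tm7sf2 did not pass without CM replicate 3 of 16 h (0.24, edgeR adjusted p = 0.0663) or CM replicate 4 of 28 h (0.20, 0.113), nor Acat2 without CM replicate 3 of 28 h (0.08, 0.095).

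Mvk and Ebp went against the other enzymes in HL-1. Mvk had 44.9, 51.5, 55.6 and 55.1 CPM in control medium at 16 h and 42.7, 39.7, 38.8 and 42.0 CPM at 28 h (-0.34 ± 0.07, edgeR adjusted p = 8.73e-05). Ebp had 57.4 to 62.7 CPM and then 47.6 to 52.6 CPM (-0.24 ± 0.05). The later libraries of both genes lay below all earlier ones, and under CM the differences were -0.26 ± 0.07 and -0.38 ± 0.05. Idi1 (0.08 ± 0.06) and Dhcr7 (-0.03 ± 0.05) did not pass the test in control medium, nor did they under CM (0.07 ± 0.06 and 0.04 ± 0.05).

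Markers moved with time in HL-1 too. The summed cardiomyocyte markers were at 884 to 931 CPM in control medium at 16 h and at 1134 to 1189.5 CPM at 28 h, with Myh6 and Nppa at 0 in every control library. The summed bile duct markers went from 105 to 127 CPM to 295 to 320.3 CPM, and the summed mesenchymal markers from 6921 to 8076 CPM to 8474 to 9012 CPM. Their part in the time differences was not tested. The hours at which the lines were sampled also differ, so the time differences of AML12 and HL-1 are not compared.

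**Figure D2:**
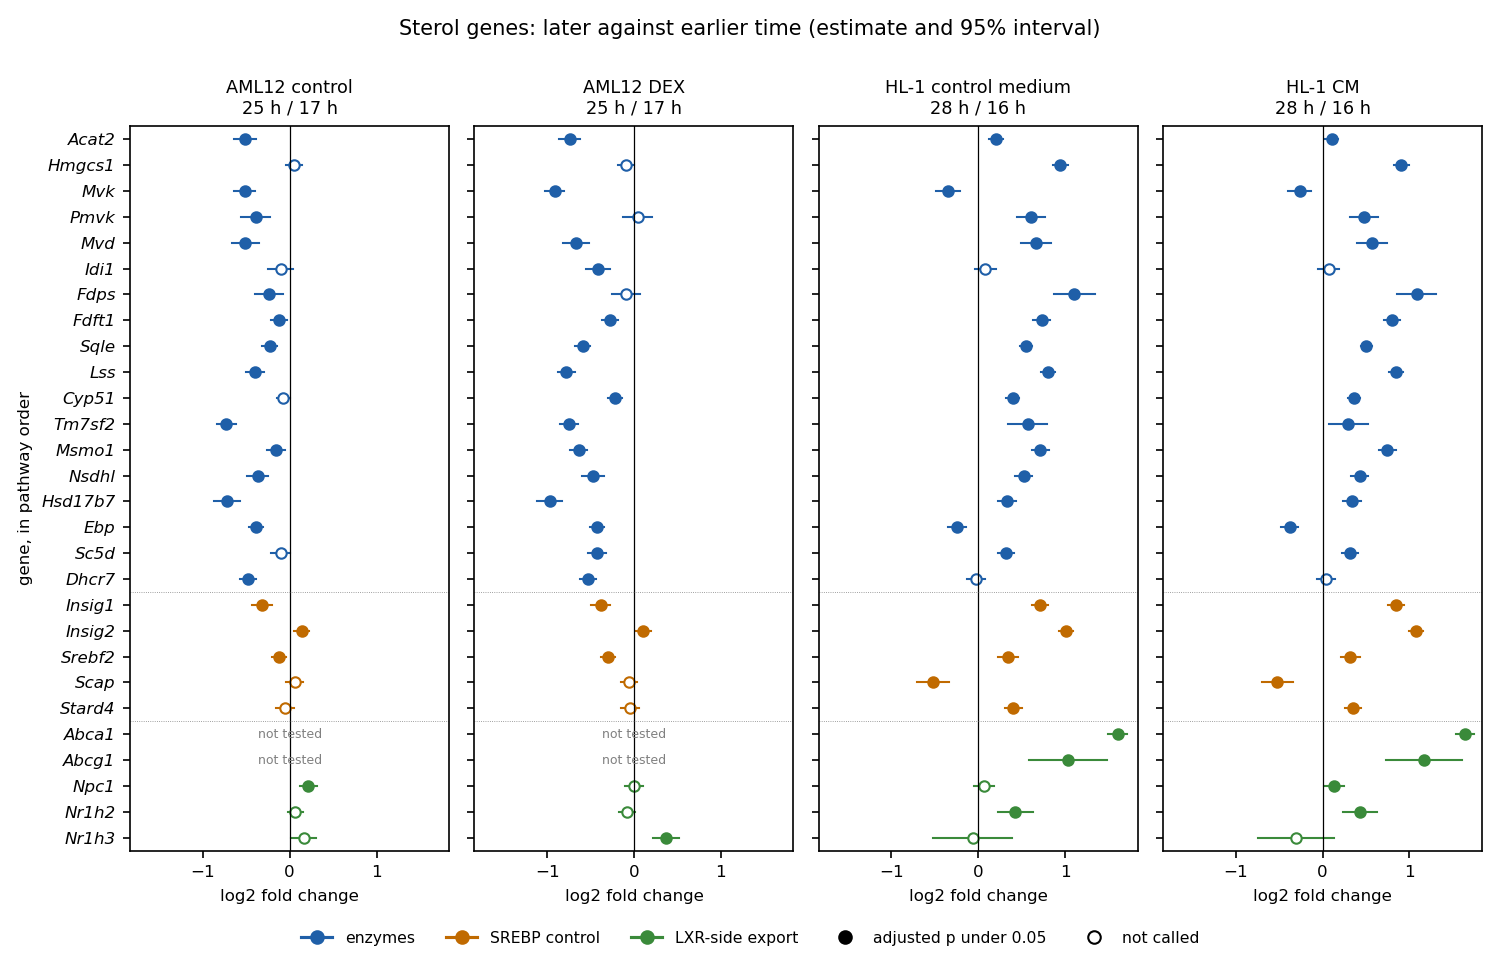
Log2 fold change (x axis) of the later against the earlier time for each of the 28 genes (y axis) in the AML12 and HL-1 control and treated groups, with bars for 95% intervals and colours for the gene groups. Most enzymes lie left of 0 in AML12 and right of 0 in HL-1, where Abca1 reaches 1.61 and 1.64.

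**Figure D3:**
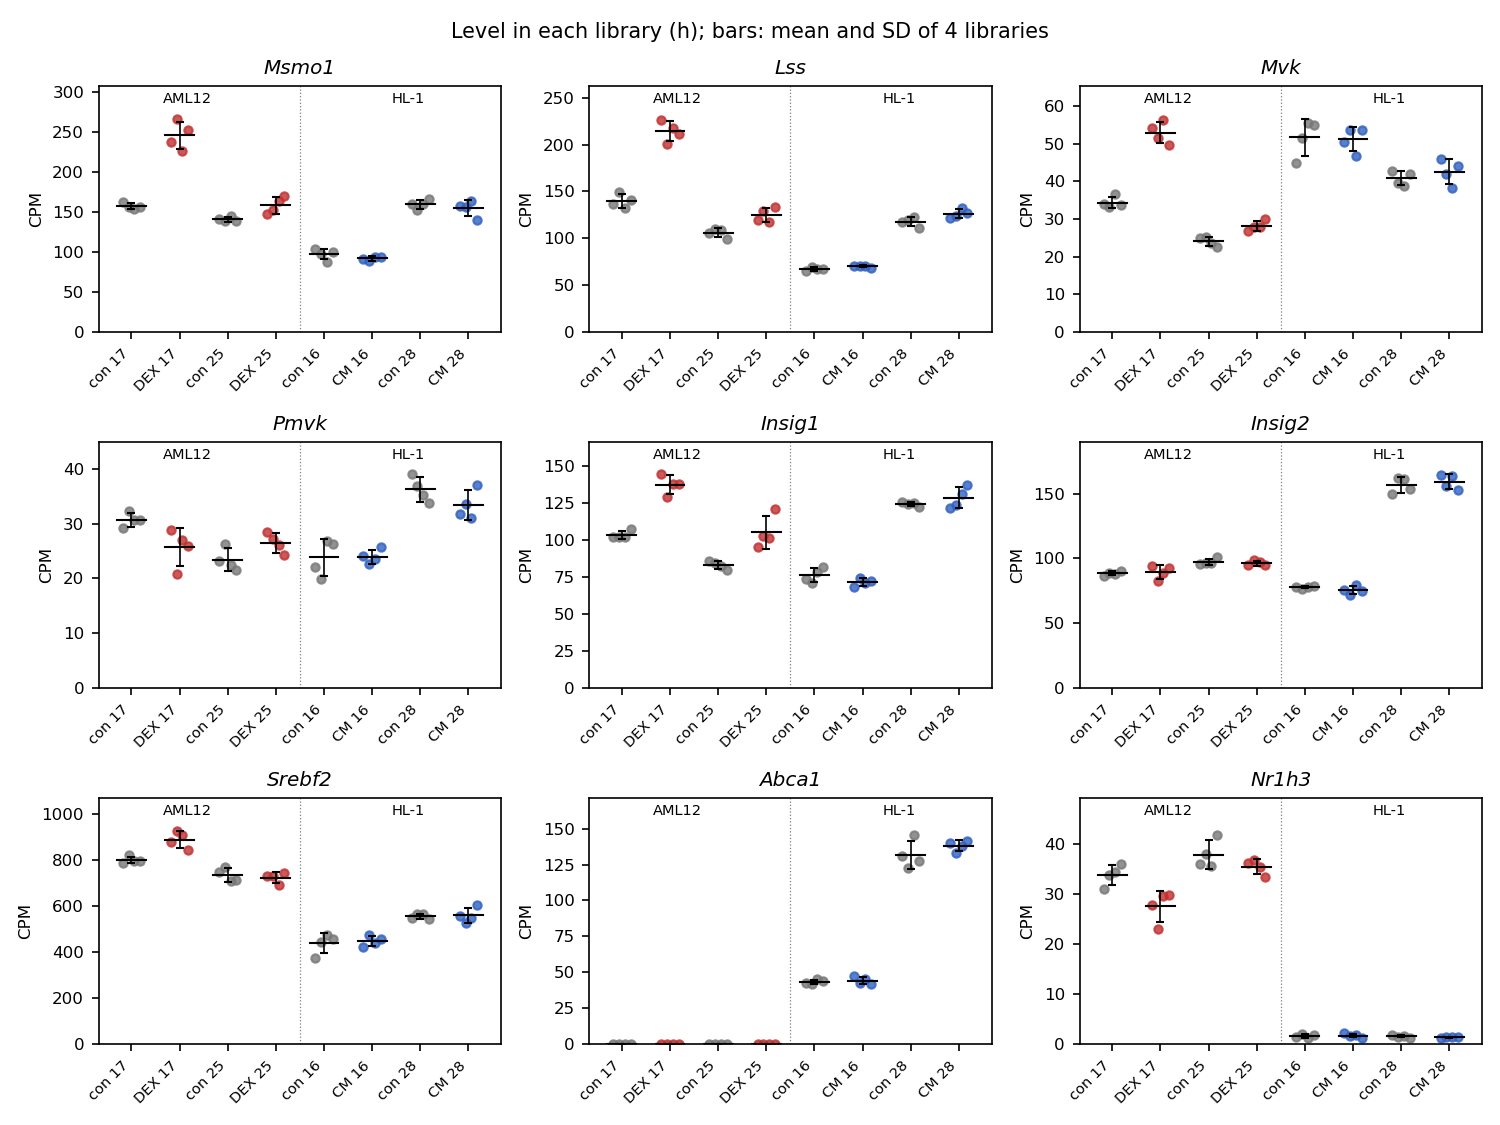
CPM (y axis, from 0) in each library (points) of the 8 groups (x axis) for 9 genes, with the mean and SD of 4 libraries. Among the AML12 libraries, Msmo1, Lss and Mvk stand highest under DEX at 17 h, and Abca1 is near 0 in AML12 and at 122 to 146 CPM in HL-1 at 28 h.

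The levels of the genes were also set side by side in the lines. To compare genes, levels were divided by exon length (CPM per kb of exon) and averaged over the 16 libraries of a line, without a test, since the tables were counted separately. Srebf2 was the highest of the list in both, at 109 CPM per kb in AML12 and 69.5 in HL-1. In AML12 Ebp (55.0), Sqle (53.7) and Cyp51 (43.7) followed. In HL-1 Sqle (62.1), Cyp51 (56.6) and Hmgcs1 (43.9) followed. The ranges over libraries overlapped between the lines for 16 of the 28 genes, AML12 was wholly above HL-1 for 9 and HL-1 above AML12 for 3. Of the 15584 genes listed in both tables that passed the filter in at least 1 line, AML12 was wholly above HL-1 for 29% and HL-1 above AML12 for 25.5%. All 27843 genes listed for AML12 had counts there, whereas 31606 of the 55414 listed for HL-1 did. Genes measured in HL-1 but silent in AML12, such as Col3a1, are thus left out. The share with HL-1 above is therefore too low to serve as an even background.

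The 3 genes higher in HL-1 were Abca1, Abcg1 and Idi1. Abca1 was at 89.5 CPM over the HL-1 libraries and at 0.0152 CPM in AML12, where 4 counts give an exact 95% Poisson interval of 0.00415 to 0.0390 CPM. Abcg1 was at 2.43 CPM in HL-1 and at 0.0191 CPM in AML12 (5 counts, 0.00619 to 0.0445 CPM). Reads are no count of independent molecules, so such intervals leave out every error but that of counting. Even against the upper limits in AML12, Abca1 was 2292 times and Abcg1 54.7 times higher in HL-1. Idi1 was 1.72 times higher in HL-1, at 16.6 against 9.68 CPM per kb.

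Nr1h3 went the other way, at 13.4 CPM per kb in AML12 and 0.608 in HL-1, 22.0 times higher in AML12. Nr1h2 was closer, at 39.5 and 21.0 CPM per kb. Npc1 (9.27 against 2.91 CPM per kb) and, among the enzymes, Tm7sf2 (16.4 against 2.20), Mvd (31.9 against 11.0) and Ebp (55.0 against 23.2) were also higher in AML12 in all libraries. Scap, Stard4 and Srebf2 were 1.78, 1.45 and 1.57 times higher in AML12. Fdps was low per kb in both lines, at 3.41 and 2.20 CPM per kb. It shares 26.7% of its exon bases with Gm43738 on the same strand. How reads from shared bases were counted is not known, so its level may be too low.

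**Figure D4:**
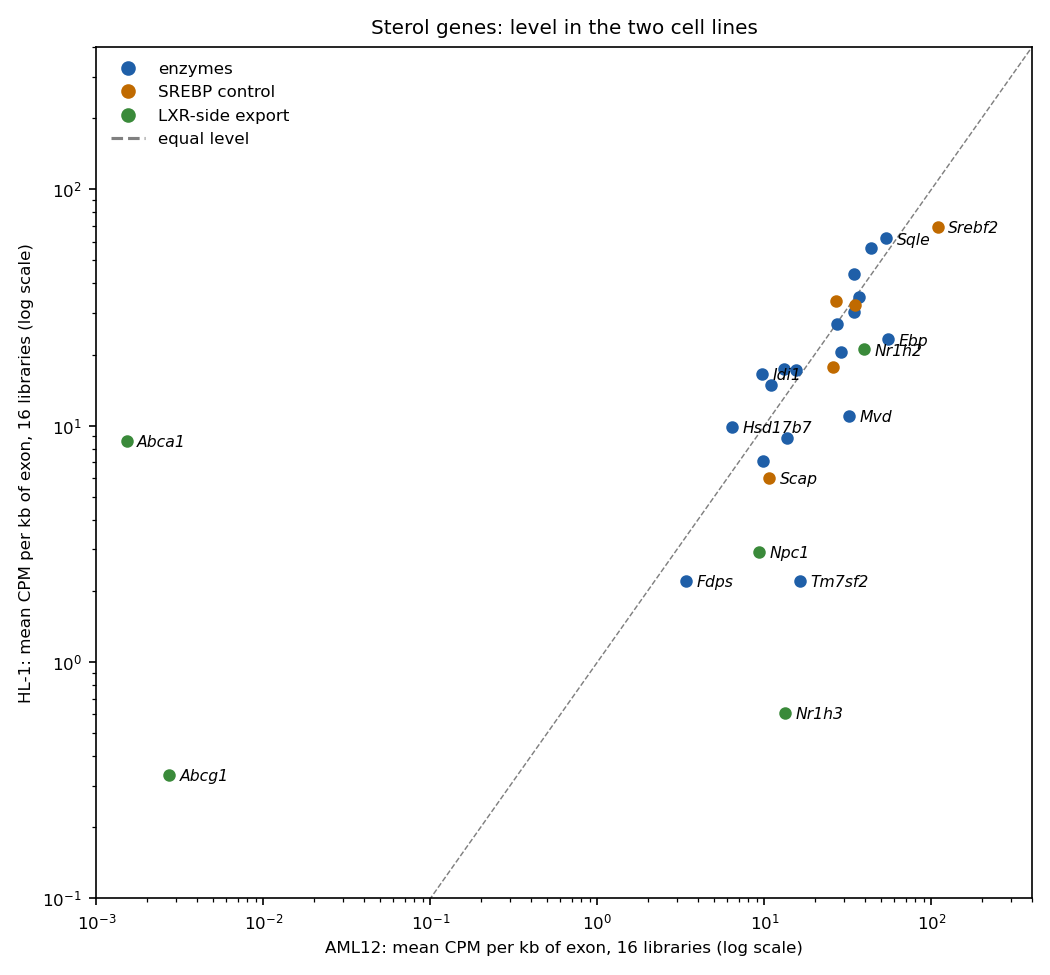
Mean CPM per kb of exon over 16 libraries in AML12 (x axis, log scale) and HL-1 (y axis, log scale), 1 point per gene, coloured by group, with a dashed line of equal level. Most enzymes lie near the line, while Abca1 and Abcg1, which rest on 4 and 5 counts in AML12, lie far above it and Nr1h3 lies below it.

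Other genes linked to the pathway were counted from further lists, beside 38.4% of all genes called under DEX at 17 h (20.5% higher and 17.9% lower) and 11.7% at 25 h. Of 8 tested partners of the sterol enzymes, 7 rose and 0 fell under DEX at 17 h, with Por, the reductase that feeds electrons to Cyp51 and Sqle, at 0.44 ± 0.05 (206 to 278 CPM in group means), and Tmem97, a sterol-regulated membrane protein, at 0.43 ± 0.06. At 25 h 3 of the 8 rose, Por (0.23 ± 0.05) and Tmem97 (0.25 ± 0.06) among them. Of 8 genes of SREBP proteolysis and sterol-dependent degradation, 0 were called at either time by edgeR, with 1 and 0 at an unadjusted p under 0.05. The isoprenoid branch, which takes farnesyl and geranylgeranyl groups away from sterols, had 4 rises and 3 falls among 13 at 17 h. Fntb, the beta subunit of protein farnesyltransferase, had the largest of them, at 0.99 ± 0.07 (19.1 to 38.0 CPM), and Coq2, of ubiquinone synthesis, was at 0.23 ± 0.05. At 25 h 0 of these 13 were called by edgeR, with 0 at an unadjusted p under 0.05 and values from -0.11 to 0.19.

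Of 16 genes of sterol storage and transport, 5 rose and 3 fell under DEX at 17 h, where 20.5% and 17.9% of all genes did. Lipa, the lysosomal lipase for cholesteryl esters, fell by 0.61 (SE 0.04), from 213 to 139 CPM in group means, and Soat1, which esterifies cholesterol, rose by 0.28 ± 0.04. At 25 h Lipa was still lower, by 0.16 (SE 0.04), and Lrp8, a lipoprotein receptor, was 0.34 ± 0.07 higher. Of 6 LXR targets and oxysterol genes tested, 3 rose and 1 fell at 17 h, with Lpcat3, a phospholipid remodelling enzyme, at 0.34 ± 0.04 and Arl4c at -0.39 ± 0.04. 0 of the 6 were called at 25 h by edgeR, with 1 at an unadjusted p under 0.05, where 11.7% of all genes were called. In HL-1 under CM, Gramd1b, a sterol transfer protein, was -0.25 ± 0.06 at 16 h (edgeR adjusted p = 0.0386) and Cyb5b, an electron carrier, 0.14 ± 0.04 at 28 h (edgeR adjusted p = 0.0403). No other gene of these lists was called in HL-1 under CM. Tested there were 8 partner, 8 proteolysis and degradation, 13 isoprenoid, 14 storage and transport, and 7 LXR and oxysterol genes. Of all genes, 2.03% were called there at 16 h and 1.92% at 28 h, so 1 call at each time is near the share of all genes. Overlaps with neighbouring genes were looked up for the 28 genes only.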

How the data were processed

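RNA of 2 mouse cell lines was sequenced in 32 libraries, and the authors deposited 1 table of counts per gene for each line, in whole numbers that were not normalized, per the file headers and the values. FastQC 0.11.8, STAR and the builds mm10 and GRCm38 are named per the submitters' processing notes, and TRIzol and NEBNext Ultra II per the labels' protocols. No source used here gives the read counter, the strand setting or the annotation, so reads of overlapping genes and close paralogs cannot be told apart. Gene positions and exon lengths came from GENCODE M21.

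Groups came from the labels. For each line, edgeR 4.0.16 in R 4.3.3 was fitted to all 16 libraries with TMM scaling, filterByExpr and 1 mean per group, and 10 contrasts were tested with the quasi-likelihood test and Benjamini-Hochberg adjustment over all genes tested. The SE is the log2 fold change divided by the root of F. Alternatives were DESeq2 1.42.0, limma-voom (limma 3.58.1), RLE factors, leaving out the low-count filter, scaling by total counts, the replicate number as a block, thinning to the lowest total, the compared libraries only and leaving out each library. The test was tried on simulated counts. The members and lists were chosen with earlier results of these data known. The rule for named genes was all 28 genes, by value or within a range, and from each other list up to 2 called genes with the smallest p in each comparison of treated with control. The values of some further genes of the pathway are not reported here.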

Additional observations from a re-analysis of the deposited data

Results flagged for a closer look

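In groups of 4 libraries, 216 were examined for 1 library far from the other 3 by its gap to the nearest, against the 95% critical value of Dixon's ratio, and 9 were found, where chance gives about 1 in 20. In AML12, DEX replicate 4 at 25 h was high for Hmgcs1 (178 CPM, the others 160 to 162) and for Tm7sf2 (65.4 CPM, the others 58.0 to 59.0). Control replicate 3 at 17 h was low for Dhcr7 (59.0 CPM, the others 63.2 to 63.6) and control replicate 4 at 17 h was high for Insig1 (108 CPM, the others 102 to 103). Control replicate 4 at 25 h was high for Insig2 (101 CPM, the others 95.6 to 96.4), and DEX replicate 4 at 17 h was low for Scap (75.4 CPM, the others 83.2 to 84.4). In HL-1, CM replicate 3 at 28 h was high for Acat2 (95.8 CPM, the others 88.7 to 89.9), control replicate 1 at 16 h for Nsdhl (77.1 CPM, the others 68.7 to 68.9), and CM replicate 2 at 28 h for Ebp (49.0 CPM, the others 44.2 to 44.4).

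The DEX effect in AML12 differed between 25 h and 17 h, by the interaction term of edgeR, for 9 genes. The log2 difference was -0.48 for Msmo1, -0.40 for Mvk, -0.38 for Lss, -0.36 for Sqle, -0.32 for Sc5d, -0.31 for Idi1, -0.21 for Npc1, -0.17 for Srebf2 and 0.44 for Pmvk, with edgeR adjusted p from 1.57e-05 (Msmo1) to 0.035 (Srebf2). With 1 library left out, Idi1, Npc1 and Srebf2 lost their calls in some of the 16 cases, with edgeR adjusted p of at most 0.0744.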

How the results depend on the processing

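The number of genes called under DEX at 25 h was the only count over these 10 comparisons that moved by more than 1.5 times: it was 13, and 6 to 11 with 1 library left out. It was 12 or 13 under the other alternatives. The counts ranged from 21 to 22 for DEX at 17 h, 6 to 13 for the difference of the DEX effects (6 with total counts only), 16 to 19 and 18 to 20 for time in AML12 control and DEX cells, 0 throughout for CM, and 24 and 23 to 25 for time in HL-1 control medium and CM. Of 4696 values for single genes, 4582 kept their call, 89 lost it, 25 gained it and 0 reversed; 172 values called in neither fit changed sign and were counted among those that kept their call. The low number of libraries limits all of this, and with 1 library left out the remaining 3 set the spread with the other groups. Deviations of same-numbered libraries of different groups had correlations of -0.0945 to 0.108 in AML12 and -0.119 to 0.121 in HL-1. As not every pair was over 0.1, the numbers were not taken to pair the samples. As a hint from the data, not the design, 12 of 24 comparisons in HL-1 correlated best with their own number, and 7 of 24 did in AML12. Each had the 4 libraries of the other group to match, so chance alone gives about 1 in 4, near the AML12 share. With the replicate number as a block, the counts were 21 for DEX at 17 h, 13 at 25 h, 9 for their difference, 17 and 19 for time in AML12, 0 for each CM comparison, and 24 and 25 for time in HL-1; of the single genes only the call of Fdft1 for time in AML12 controls changed (edgeR adjusted p = 0.054).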
